A study of Mus musculus with 4 samples.

Results

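Forkhead transcription factors share a winged-helix DNA-binding domain and are named by family letter, from FoxA to FoxS in the mouse. They were taken from the expression tables as every gene whose symbol is Fox followed by a letter from a to s, a number and, where present, a further letter and number, and 43 of 21827 genes are described here. Most forkhead proteins bind closely related DNA motifs, and their levels mark particular tissues and cell states. FoxO proteins carry insulin and growth factor signals, since Akt phosphorylation moves them out of the nucleus. FoxK and FoxJ2/3 proteins are found in most cells, Foxd1 marks the temporal side of the embryonic retina, Foxn4 acts in progenitors of amacrine and horizontal cells, and FoxC, FoxF and Foxs1 mark mesenchyme and the wall of blood vessels.

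The libraries were made from retina of slc:ICR mice at postnatal day 12, in 4 groups of 1 library each. Dissociated cells were sorted on Cd73, a surface enzyme encoded by Nt5e that rods and their precursors carry, into a positive fraction (Cd73P) and a negative fraction (Cd73N). Each fraction came from wild-type mice (WT) and from retina-specific Ezh2 knockout mice (Ezh2-cKO), in which floxed Ezh2 alleles are recombined by Cre under the Dkk3 promoter, active in retinal progenitors. Ezh2 encodes the histone methyltransferase of Polycomb repressive complex PRC2. Vessels and microglia do not arise from these progenitors and so lie outside the Cre lineage, and the number of retinas behind each of these libraries was not given in the sources used here. The unit is FPKM, in which the fragments counted for a gene are corrected for its exon length and for how many fragments the library mapped, so that it allows levels of different genes to be compared.

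Ezh2 was measured at 14.1 FPKM in Cd73N WT, 15.9 in Cd73N Ezh2-cKO, 5.38 in Cd73P WT and 3.45 in Cd73P Ezh2-cKO. In Cd73N the library labelled Ezh2-cKO thus held no less Ezh2 than WT at the gene level, and a value summed over all exons does not resolve a deleted part, so genotypes are given as labelled throughout. Nt5e, the sorted marker, matched the sort, with 0.844 (WT) and 0.609 (Ezh2-cKO) FPKM in Cd73N against 125 and 123 in Cd73P. Rod markers (8 genes) summed to 873 and 875 FPKM in Cd73N and to 12448 and 17758 in Cd73P. Relative depth lay between 0.999 and 1.17 of the Cd73N WT library. Xist was at 52.2, 240, 47.0 and 95.6 FPKM in Cd73N WT, Cd73N Ezh2-cKO, Cd73P WT and Cd73P Ezh2-cKO, and 3 of the 43 forkhead genes (Foxo4, Foxp3 and Foxr2) are X-linked.

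Differences are given as the log2 ratio of (FPKM + 1), which understates changes of weakly expressed genes, and a gene was counted as higher or lower at a 1.5-fold difference on that scale. Standard errors (SE) and 95% intervals of FPKM folds come from the deposited bounds and cover counting error within a library only. The FPKM of Foxn3 in Cd73N WT lay above its own upper bound (24.4 against 24.2). So did that of Foxs1 in Cd73N WT (8.53 against 8.48) and Cd73N Ezh2-cKO (6.82 against 6.76). Every group is a lone library, so differences compare libraries, with neither a replicate check nor a test. In sorted bulk samples, fewer cells of a type and less RNA per cell cannot be told apart.

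Of the 43 forkhead genes, 19 reached 1 FPKM in at least 1 library and 24 did not. The number at 1 FPKM or more was 15 in Cd73N WT, 18 in Cd73N Ezh2-cKO, 13 in Cd73P WT and 10 in Cd73P Ezh2-cKO. These were 34.9%, 41.9%, 30.2% and 23.3% of these genes, against 55.9%, 58.4%, 48.0% and 47.4% of all genes. Summed over the 42 members with a usable value in every library, forkhead FPKM came to 115, 115, 85.6 and 84.2 in the same order. Foxp4 was left out of that sum because its estimate failed in both Cd73N libraries.

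**Figure D1:**
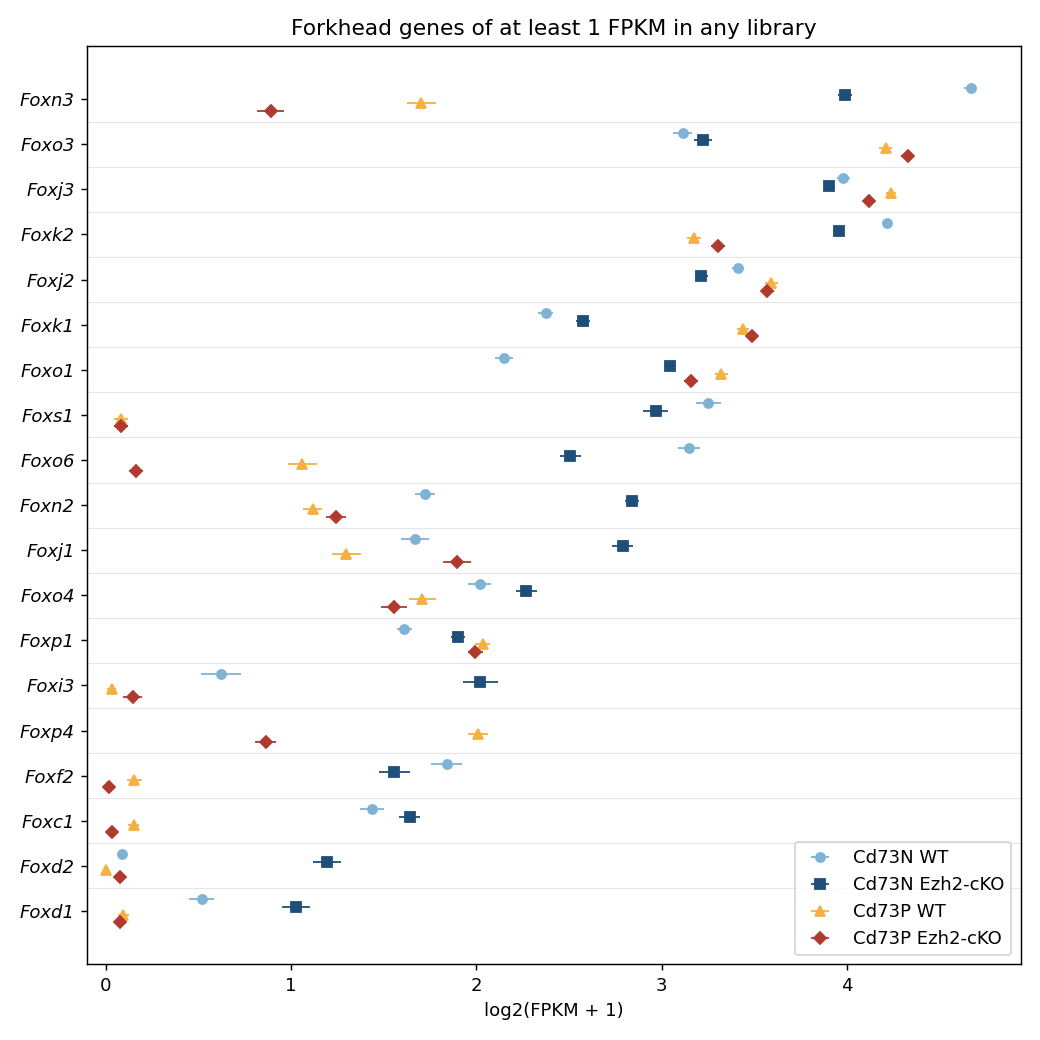
Level of each forkhead gene that reached 1 FPKM in any library, as log2(FPKM + 1), with a marker per library and bars of 1 SE from the deposited bounds (counting error only). Foxn3 had the highest value, 24.4 FPKM in Cd73N WT, while Foxs1, Foxf2 and Foxc1 sat near 0 in both Cd73P libraries and Foxp4 has no Cd73N marker because its estimate failed there.

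The broadly expressed FoxK and FoxJ2/3 genes made up the largest share of this sum, 40.03% and 36.3% in Cd73N WT and Cd73N Ezh2-cKO and 54.7% and 55.1% in Cd73P WT and Cd73P Ezh2-cKO. Foxj3 stood at 14.8, 14.0, 17.9 and 16.4 FPKM in Cd73N WT, Cd73N Ezh2-cKO, Cd73P WT and Cd73P Ezh2-cKO, the order used for all series of 4 values below. Foxj2 was at 9.65, 8.28, 11.1 and 10.9 FPKM. Neither gene passed the 1.5-fold threshold in any of the 4 comparisons of FPKM as deposited, so both were close to level across the sort and the genotypes. Scaling between libraries moved Foxj3 past it in Cd73P against Cd73N WT (0.66 with scaling by the FPKM sum) and Foxj2 in the same contrast of the Ezh2-cKO libraries (0.61 with scaling by the median ratio).

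The 2 FoxK genes, which encode partners of the Bap1 deubiquitinase complex (PR-DUB), differed between the fractions in opposite directions. Foxk1 was at 4.19, 4.96, 9.86 and 10.2 FPKM, higher in Cd73P with a log2 ratio of 1.07 in WT (SE 0.052) and 0.91 in Ezh2-cKO (SE 0.046). Foxk2 was at 17.6, 14.5, 8.03 and 8.87 FPKM, lower in Cd73P with log2 ratios of -1.04 (SE 0.048) and -0.65 (SE 0.047). The Ezh2-cKO value for Foxk2 fell short of the threshold with either scaling between libraries (-0.41 and -0.45). Both genes stayed under the threshold between genotypes. Summed over the 4 FoxK and FoxJ2/3 genes, FPKM was 46.2, 41.7, 46.8 and 46.4.

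Of the 8 other PR-DUB components listed (Bap1, Asxl1, Asxl2, Hcfc1, Ogt, Mbd5, Mbd6 and Kdm1b), 1 was higher and 0 lower in Cd73N Ezh2-cKO, and 0 were higher and 1 lower in Cd73P Ezh2-cKO. Of all genes, 7.18% and 1.71% were higher and lower in the Cd73N comparison and 2.26% and 2.38% in the Cd73P comparison. The former was Ogt, the O-GlcNAc transferase, at 14.9 FPKM in Cd73N WT and 35.9 in Cd73N Ezh2-cKO (log2 ratio 1.21). The latter was Kdm1b, a lysine demethylase, at 8.15 FPKM in Cd73P WT and 4.14 in Cd73P Ezh2-cKO (log2 ratio -0.83). In Cd73P against Cd73N, 3 were higher and 0 lower in WT (9.07% and 27.9% of all genes). In Ezh2-cKO, 1 was higher and 1 lower (8.40% and 29.1%).

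**Figure D2:**
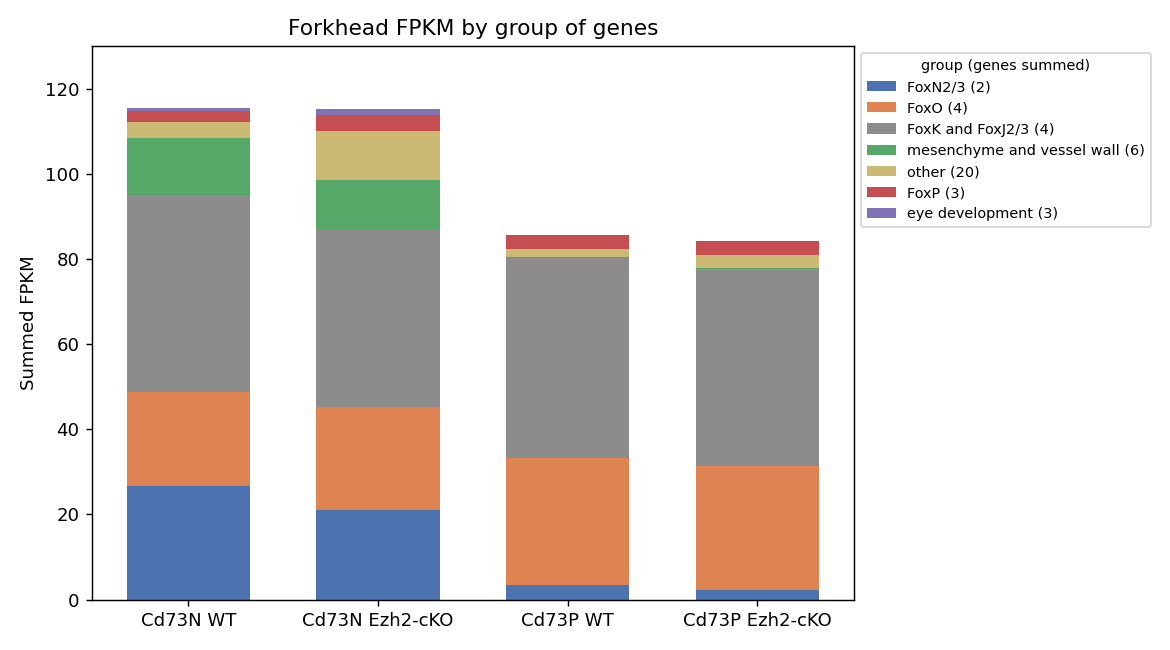
Summed FPKM of the forkhead genes in each library, stacked by group of genes, for the 42 genes with a usable value in all 4 libraries. FoxK with FoxJ2/3 and FoxO together fill most of each bar, while FoxN2/3 comes to 3.42 and 2.22 FPKM and the mesenchyme and vessel wall genes to 0.333 and 0.101 FPKM in the Cd73P libraries.

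The FoxO genes split by member. Their sum was 22.0, 24.1, 29.9 and 29.1 FPKM, and the member that led it was Foxo3, at 7.65, 8.34, 17.5 and 19.1 FPKM. Foxo3 was higher in Cd73P by a log2 ratio of 1.10 in both WT (SE 0.062) and Ezh2-cKO (SE 0.058). It did not pass the threshold between genotypes in either fraction, with log2 ratios of 0.11 and 0.12.

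Foxo1 was at 3.43, 7.26, 9.01 and 7.94 FPKM. The lowest of these values was in Cd73N WT, and the other 3 lay within 7.26 to 9.01. In Cd73N the library labelled Ezh2-cKO was higher by a log2 ratio of 0.90 (SE 0.060), a 2.11-fold difference in FPKM with an interval of 1.91 to 2.34. In Cd73P the ratio was -0.16 (SE 0.052). The Cd73P against Cd73N ratio was accordingly 1.17 in WT (SE 0.061) and 0.11 in Ezh2-cKO (SE 0.051), with the shared libraries linking these figures. The difference between the fractions was not tested. Exons of Foxo1 share 674 bases with the opposite-strand transcript RP24-337A16.1, and the library kit did not mark strand.

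Foxo6, a FoxO gene expressed mainly in brain, ran the other way across the sort, at 7.86, 4.68, 1.09 and 0.118 FPKM. All 4 libraries were apart, with both Cd73N values above both Cd73P values. In Cd73P the library labelled Ezh2-cKO was 9.23-fold lower in FPKM (interval 5.43 to 15.7, log2 ratio -0.90). In Cd73N it was 1.68-fold lower (interval 1.46 to 1.93, log2 ratio -0.64), and this call was lost with either scaling between libraries (-0.57 and -0.52). Cd73P was lower than Cd73N by log2 ratios of -2.09 in WT and -2.35 in Ezh2-cKO.

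Foxo4, on the X chromosome, was at 3.05, 3.82, 2.27 and 1.94 FPKM. It passed the threshold in 1 comparison, Cd73P against Cd73N in Ezh2-cKO, with a log2 ratio of -0.72 (SE 0.090). That call was lost with either scaling (-0.54 and -0.58).

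Among 17 genes upstream of FoxO (insulin and IGF receptors, their substrates, PI3-kinase, Akt, Sgk and FoxO-modifying enzymes), 4 were higher and 0 lower in Cd73N Ezh2-cKO, and 0 were higher or lower in Cd73P Ezh2-cKO. Of all genes, 7.18% were higher and 1.71% lower in Cd73N Ezh2-cKO, and 2.26% and 2.38% in Cd73P Ezh2-cKO. Among genes of at least 1 FPKM, 11.6% were higher in Cd73N Ezh2-cKO. Insr, the insulin receptor, went from 7.45 to 13.6 FPKM in Cd73N (log2 ratio 0.79). Pik3r1, the regulatory subunit of PI3-kinase, went from 9.14 to 19.4 FPKM (1.01). In Cd73P against Cd73N, 8 of the 17 were higher and 2 lower in WT (9.07% and 27.9% of all genes), and 4 were higher and 4 lower in Ezh2-cKO (8.40% and 29.1%).

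Among those of at least 5 FPKM in 1 of the 2 libraries, the 4 largest WT differences were in Pik3r1 (9.14 FPKM in Cd73N and 49.8 in Cd73P, log2 ratio 2.32), the deacetylase gene Sirt1 (12.0 and 38.2 FPKM, 1.59), Akt1 (50.2 and 19.1 FPKM, -1.35) and the catalytic subunit gene Pik3ca (7.77 and 18.5 FPKM, 1.16). Akt1 thus lay on the Cd73N side and the other 3 on the Cd73P side. Below that level, the receptor substrate gene Irs1 was at 2.41 and 0.168 FPKM (-1.55), a gene named after its values were seen.

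Of 20 known FoxO target genes, 3 were higher and 0 lower in Cd73N Ezh2-cKO (7.18% and 1.71% of all genes), and 0 were higher and 2 lower in Cd73P Ezh2-cKO (2.26% and 2.38%). Cdkn1a, which encodes the cell cycle inhibitor p21, was at 9.87, 32.5, 3.60 and 1.20 FPKM, with a log2 ratio of 1.62 between the Cd73N genotypes. Sesn1, a stress-response gene, went from 16.7 to 26.2 FPKM in Cd73N (0.62). Bcl2l11, which encodes the pro-apoptotic protein Bim, was the remaining higher gene in Cd73N, at 2.33 FPKM in WT and 4.33 in Ezh2-cKO (0.68), but lower in Cd73P, at 5.84 and 3.38 FPKM (-0.64). In Cd73P against Cd73N, 3 targets were higher and 5 lower in WT (9.07% and 27.9% of all genes). In Ezh2-cKO, 1 was higher and 7 lower (8.40% and 29.1%). The targets did not share a direction across the sort. In WT, Txnip, a thioredoxin inhibitor, was at 51.8 FPKM in Cd73N and 4.95 in Cd73P (log2 ratio -3.15), while the stress gene Gadd45a was at 25.7 and 105 FPKM (1.99).

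The FoxN2/3 pair was mostly found in Cd73N, and its 2 members differed in opposite directions between the Cd73N genotypes. Foxn3, a transcriptional repressor linked to the DNA damage checkpoint, was at 24.4, 14.9, 2.26 and 0.852 FPKM. Its Cd73P level was 10.8-fold below Cd73N in WT (interval 9.17 to 12.8, log2 ratio -2.96) and 17.5-fold below in Ezh2-cKO (interval 13.9 to 21.9, log2 ratio -3.10). The libraries labelled Ezh2-cKO were lower in both fractions, by log2 ratios of -0.68 in Cd73N (SE 0.052) and -0.81 in Cd73P (SE 0.108). The Cd73N call was lost with scaling by the FPKM sum (-0.54).

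Foxn2, its close relative, was at 2.30, 6.15, 1.17 and 1.37 FPKM. It was 2.67-fold higher in Cd73N Ezh2-cKO (interval 2.37 to 3.02, log2 ratio 1.12) and did not pass the threshold in Cd73P (0.13). In Cd73P against Cd73N the log2 ratio was -0.61 in WT, a call lost with either scaling (-0.43 and -0.37), and -1.60 in Ezh2-cKO. As a sum, FoxN2/3 took 23.1% and 18.3% of forkhead FPKM in the Cd73N libraries, and in the Cd73P libraries it came to 3.42 and 2.22 FPKM.

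Foxd1, which marks the temporal side of the embryonic retina, was on the Cd73N side, at 0.430, 1.04, 0.068 and 0.056 FPKM. Its 2.41-fold difference between the Cd73N genotypes (interval 1.68 to 3.45) gave a log2 ratio of 0.51, under the threshold, and 0.59, past it, with scaling by the FPKM sum. Cd73P was lower than Cd73N in Ezh2-cKO by a log2 ratio of -0.95, and in WT the ratio was -0.42, under the threshold.

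The list of retinal axis patterning held 12 genes (ephrins, Eph receptors and the transcription factors Hmx1, Vax1, Vax2, Tbx5 and Zic2). Of these 12, 6 were higher and 1 lower in Cd73N Ezh2-cKO (7.18% and 1.71% of all genes). In Cd73P Ezh2-cKO, 1 was higher and 0 lower (2.26% and 2.38%). Hmx1, a nasal factor, was at 6.15 FPKM in Cd73N WT and 17.2 in Cd73N Ezh2-cKO (log2 ratio 1.35). Zic2, a factor of ventrotemporal retina, was at 4.81 and 13.3 FPKM (1.30). The ephrin gene Efna5 was at 3.53 and 6.74 FPKM (0.77), and the receptor gene Epha3 was the lower member, at 14.3 and 7.91 FPKM (-0.78). In Cd73P the member that was higher was the ventral factor Vax2, at 20.7 FPKM in WT and 45.0 in Ezh2-cKO (1.08). Cd73P was lower than Cd73N for 9 of the 12 in WT, with 0 higher, and for 10 in Ezh2-cKO, with 1 higher. Among all genes of at least 1 FPKM, 45.9% were lower in Cd73P WT and 45.6% in Cd73P Ezh2-cKO (27.9% and 29.1% of all genes).

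The remaining genes of eye development were low. Foxn4 lay at or under 0.343 FPKM in every library. Of 11 measured genes of the amacrine and horizontal programme (12 listed), 1 was higher and 0 lower in Cd73N Ezh2-cKO (7.18% and 1.71% of all genes). In Cd73P Ezh2-cKO, 0 were higher and 2 lower (2.26% and 2.38%). Of the 11, 6, 5, 4 and 4 reached 1 FPKM in the 4 libraries, and those below could hardly pass the threshold with 1 added to FPKM. Neurod4, a neurogenic factor, was lower in Cd73P, at 12.4 FPKM in WT and 3.69 in Ezh2-cKO (log2 ratio -1.51). Across the sort 2 of the 11 were higher and 3 lower in Cd73P, in each genotype. Of all genes, 9.07% and 27.9% were higher and lower in WT, and 8.40% and 29.1% in Ezh2-cKO. Foxe3, a lens gene, was listed at 0 in all 4 libraries.

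Foxi3 and Foxd2 had their highest levels in Cd73N Ezh2-cKO and little elsewhere. Foxi3, known from ectodermal placodes and their derivatives, was at 0.538, 3.06, 0.022 and 0.105 FPKM, 5.68-fold higher in Cd73N Ezh2-cKO (interval 3.57 to 9.05, log2 ratio 1.40, SE 0.144). Foxd2, a relative of Foxd1, was at 0.063 FPKM in Cd73N WT, 1.29 in Cd73N Ezh2-cKO, listed at 0 in Cd73P WT and at 0.052 in Cd73P Ezh2-cKO. In Cd73N its difference was 20.6-fold (interval 10.9 to 39.1, log2 ratio 1.11), with the highest FPKM fold between genotypes of any forkhead gene counted as higher. Foxe3 lies 16248 bases from Foxd2 on chromosome 4 and, as above, was listed at 0 throughout. In Cd73P against Cd73N the log2 ratio of Foxi3 was -0.59 in WT, a call lost with either scaling (-0.58 in each), and -1.88 in Ezh2-cKO. Foxd2 gave -1.12 in Ezh2-cKO.

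Promoter sequence was examined for the members with an entry in the RefSeq table used here (build GRCm38.p6), which were 28 of 43 with 33 promoters. The 250 bases upstream of the start are shown for Foxd2, Foxi3 and Foxo1, which were higher in Cd73N Ezh2-cKO, and for Foxn3, which was lower in both fractions. Each runs 5′ to 3′ on the gene's strand, and capitals mark CpG dinucleotides, the site of vertebrate DNA methylation.
Foxd2, chr4:114908899-114909148, minus strand: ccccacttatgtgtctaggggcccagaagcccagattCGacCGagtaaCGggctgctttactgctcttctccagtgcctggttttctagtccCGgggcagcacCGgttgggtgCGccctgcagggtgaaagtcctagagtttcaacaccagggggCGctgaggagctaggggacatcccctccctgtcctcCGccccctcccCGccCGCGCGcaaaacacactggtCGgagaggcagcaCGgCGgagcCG
Foxi3, chr6:70956356-70956605, plus strand: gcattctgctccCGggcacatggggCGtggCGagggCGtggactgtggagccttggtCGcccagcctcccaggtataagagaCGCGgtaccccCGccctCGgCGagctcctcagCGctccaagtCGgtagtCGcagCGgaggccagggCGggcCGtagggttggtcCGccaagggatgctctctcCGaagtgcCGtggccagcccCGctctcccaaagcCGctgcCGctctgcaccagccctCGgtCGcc
Foxo1, chr3:52268087-52268336, plus strand: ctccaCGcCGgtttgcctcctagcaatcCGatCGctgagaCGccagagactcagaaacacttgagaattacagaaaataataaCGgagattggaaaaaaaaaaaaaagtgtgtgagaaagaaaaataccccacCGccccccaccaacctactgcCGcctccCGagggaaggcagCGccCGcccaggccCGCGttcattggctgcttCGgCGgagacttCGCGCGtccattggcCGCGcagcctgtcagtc
Foxn3, chr12:99450075-99450324, minus strand: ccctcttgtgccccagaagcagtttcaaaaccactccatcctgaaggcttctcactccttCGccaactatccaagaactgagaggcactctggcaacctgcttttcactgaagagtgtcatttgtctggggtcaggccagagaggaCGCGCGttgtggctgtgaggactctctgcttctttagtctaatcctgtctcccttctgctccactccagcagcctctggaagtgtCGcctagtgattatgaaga

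In the mm9 coordinates of the expression tables the genes themselves span chr4:114578885-114581503 (Foxd2), chr6:70906600-70911060 (Foxi3), chr3:52072259-52154031 (Foxo1) and chr12:100433304-100688284 (Foxn3). The windows hold 16 CpG in Foxd2, 24 in Foxi3, 20 in Foxo1 and 5 in Foxn3. Set against the number that the C and G content gives, the observed to expected ratio was 0.62, 0.78, 1.04 and 0.30. Over all 33 forkhead promoters the median ratio was 0.70, against 0.56 for 18473 promoters of genes in the tables, and 63.6% against 46.5% exceeded 0.6. Several promoters belong to 1 gene, so these are descriptions. The forkhead core motif TGTTTAC, searched on both strands (GTAAACA on the other), occurred in 1 of the 33 promoters, that of Foxa1, or 3.03%, against 2.57% of promoters of genes in the tables. The 15 members with no entry were Foxb1, Foxc2, Foxe1, Foxf1a, Foxh1, Foxj1, Foxk1, Foxl1, Foxm1, Foxn2, Foxo4, Foxo6, Foxp2, Foxq1 and Foxs1.

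Foxj1, the regulator of motile cilia, was the 1 forkhead gene counted as higher in both fractions of Ezh2-cKO. It was at 2.18, 5.91, 1.46 and 2.72 FPKM. The Cd73N difference was 2.71-fold (interval 2.26 to 3.25, log2 ratio 1.12) and the Cd73P difference 1.87-fold (interval 1.49 to 2.34, log2 ratio 0.60, SE 0.107), the latter just past the threshold of 0.585. Of 15 measured motile cilium genes (18 listed), 1 was higher and 0 lower in each fraction of Ezh2-cKO. The shares of all genes were 7.18% and 1.71% in Cd73N and 2.26% and 2.38% in Cd73P. Rfx2, a ciliary transcription factor, was the Cd73P member, at 3.04 FPKM in WT and 5.33 in Ezh2-cKO (log2 ratio 0.65). Across the sort 6 of the 15 were higher and 3 lower in Cd73P WT, against 9.07% and 27.9% of all genes, and 5 were higher and 4 lower in Cd73P Ezh2-cKO, against 8.40% and 29.1%. Foxj1 itself was lower in Cd73P Ezh2-cKO than in Cd73N Ezh2-cKO (-0.89). The dynein intermediate chain gene Dnaic2, for example, was at 0.906 and 10.6 FPKM in Cd73N and Cd73P WT (2.61).

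The FoxP genes were moderate to low. Of these, Foxp1, Foxp2 and Foxp4 encode repressors that act in the developing brain and lung. Foxp1 was at 2.06, 2.74, 3.10 and 2.98 FPKM and passed no threshold as deposited. With scaling between libraries its Cd73P against Cd73N ratio in WT passed (0.66 and 0.75). Foxp4 was usable in Cd73P alone, at 3.03 FPKM in WT and 0.817 in Ezh2-cKO, a 3.71-fold lower value (interval 3.06 to 4.49, log2 ratio -1.15). Its estimate failed in both Cd73N libraries, so no other comparison was made. Foxp2 was at 0.284, 0.770, 0.066 and 0.060 FPKM. It was 2.71-fold higher in Cd73N Ezh2-cKO (interval 2.09 to 3.51), with a log2 ratio of 0.46 that lay under the threshold, and lower in Cd73P than in Cd73N Ezh2-cKO (-0.74).

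The genes of mesenchyme and vessel wall were nearly all in Cd73N and none passed the threshold between genotypes. In Cd73P WT they were too low to be counted as lower with 1 added to FPKM. With 0.1 added instead, Foxc1, Foxf1a and Foxf2 were lower in Cd73P Ezh2-cKO and none of the group was higher. The sum over the 6 genes was 13.4, 11.7, 0.333 and 0.101 FPKM. Foxs1, expressed in pericytes, led it at 8.53, 6.82, 0.059 and 0.057 FPKM. Foxf2, which acts in brain pericytes, was at 2.58, 1.94, 0.113 and 0.011 FPKM, and Foxc1, a gene of periocular mesenchyme and vessels, at 1.71, 2.12, 0.109 and 0.022 FPKM. At these low Cd73P levels Foxc1 was 4.92-fold lower in Ezh2-cKO in FPKM (interval 2.07 to 11.7), with a log2 ratio of -0.12.

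In Cd73P against Cd73N the log2 ratios in WT were -3.17 for Foxs1, -1.69 for Foxf2 and -1.29 for Foxc1, and in Ezh2-cKO they were -2.89, -1.54 and -1.61. Foxc2, a lymphatic and vessel gene, was at 0.390, 0.573, 0 and 0.008 FPKM and passed the threshold in the Ezh2-cKO libraries (-0.64). Foxf2 lies 175239 bases from Foxc1 and 64841 bases from Foxq1 on chromosome 13. Foxq1, whose exons share 1164 bases with the opposite-strand gene A530084C06Rik, did not exceed 0.357 FPKM. Pericyte markers were also mostly on the Cd73N side. Of 8, 7 were lower in Cd73P in each genotype, against 27.9% (WT) and 29.1% (Ezh2-cKO) of all genes. Among all genes of at least 1 FPKM, 45.9% and 45.6% were lower. The exception was Vtn, at 164 and 344 FPKM in the Cd73P libraries. The part of pericytes in the forkhead values was not tested. In Cd73N the same list had 0 higher and 0 lower between genotypes, and its sum was 352 and 382 FPKM. None of its markers was at 0 in any library.

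Foxm1, a driver of the G2 and M phases of the cell cycle, was at 0.488, 0.697, 0.076 and 0.040 FPKM. It passed the threshold in Cd73P against Cd73N in Ezh2-cKO (-0.71). Of 11 Foxm1 target genes, 0 were higher or lower between genotypes in either fraction. Of all genes, 7.18% and 1.71% were higher and lower in Cd73N, and 2.26% and 2.38% in Cd73P. In each genotype 1 target was higher and 2 lower in Cd73P than in Cd73N, against 9.07% and 27.9% of all genes in WT and 8.40% and 29.1% in Ezh2-cKO. Only 3, 5, 3 and 4 of the 11 reached 1 FPKM in the 4 libraries. With 1 added to FPKM, most could hardly pass the threshold, so these counts say little.

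The 21 forkhead genes not named with values above by rule did not exceed 0.357 FPKM in any library, that value being Foxq1 in Cd73N WT. Among them 5 (Foxa2, Foxb2, Foxd4, Foxe3 and Foxi1) were listed at 0 in every library, and the other 16 peaked between 0.0025 and 0.357 FPKM. Of the 43 genes, 15 stayed under 0.1 FPKM. Depth and precision were low at these levels. For values of at least 1 FPKM the bounds implied 92.5 to 2285 fragments of counting information per gene and library.

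Taken as counts between genotypes, 5 of 42 forkhead genes had higher values in Cd73N Ezh2-cKO, as labelled, against 7.18% of all genes compared, and 2 had lower ones, against 1.71%. Among genes of at least 1 FPKM in 1 of the 2 libraries, 5 of 18 forkhead genes were higher and 2 lower, against 11.6% and 2.87% of all such genes. Their median log2 ratio was 0.20, against -0.04 for all such genes. Foxi3, Foxd2 and Foxd1 passed this filter through Cd73N Ezh2-cKO alone, where they were highest, so the filter bears on these counts and this median. The median was 0.010 over all 42 usable forkhead genes and -0.14 over those of at least 5 FPKM. The higher genes were Foxi3, Foxj1, Foxn2, Foxd2 and Foxo1, and the lower were Foxn3 and Foxo6. Of these 7, Foxn3 alone exceeded 10 FPKM in either library, so the higher genes came from the low and middle part of the range.

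In Cd73P, 1 of 43 was higher (Foxj1), against 2.26% of all genes, and 3 were lower (Foxp4, Foxo6 and Foxn3), against 2.38%. Among genes of at least 1 FPKM, these were 1 and 3 of 13, against 4.31% and 4.53%. The 3 lower genes passed that filter through WT alone, so the filter bears on their count. The median log2 ratio was -0.04, the same as for all such genes. Foxj1 was higher and Foxn3 and Foxo6 lower in both fractions. A difference between the fractions in these counts was not tested.

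**Figure D3:**
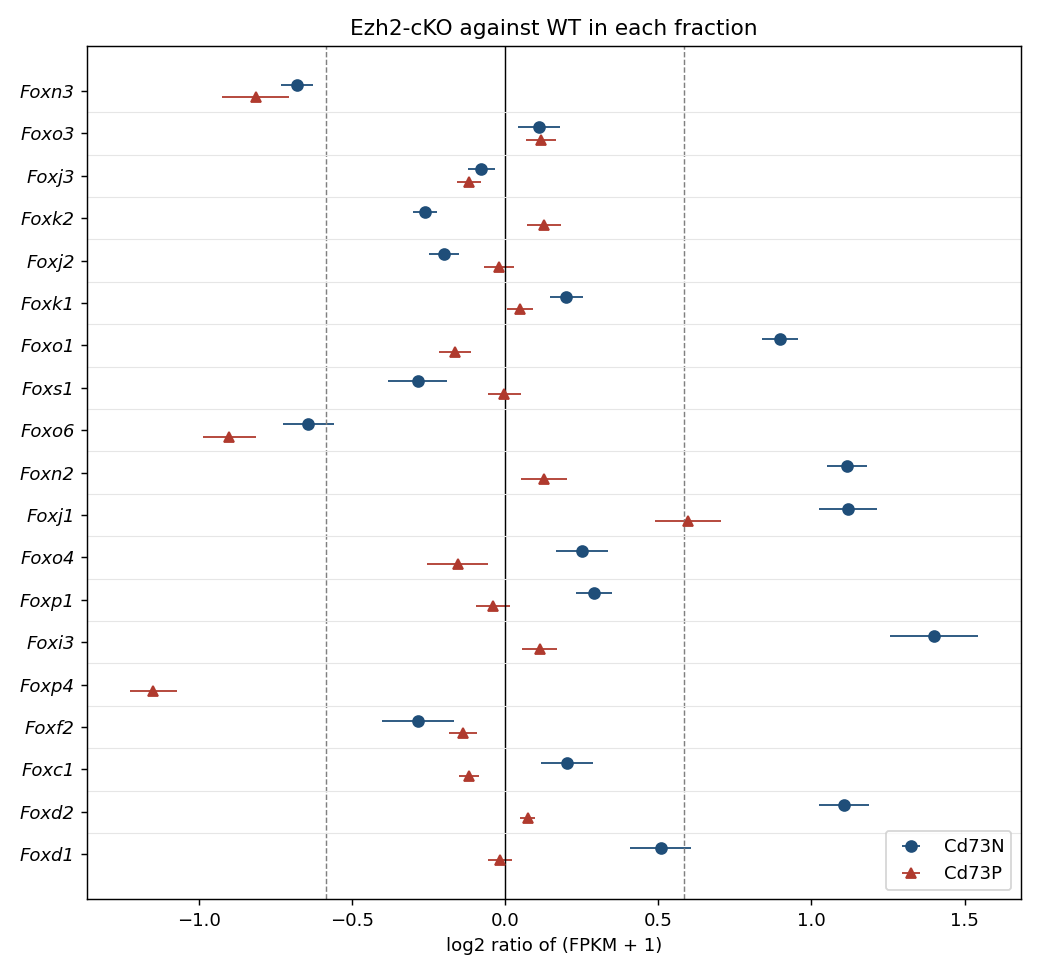
Log2 ratio of (FPKM + 1) between Ezh2-cKO and WT for forkhead genes of at least 1 FPKM in any library, in Cd73N (circles) and Cd73P (triangles), with bars of 1 SE for counting error and dashed lines at 1.5-fold. Foxi3, Foxj1, Foxn2, Foxd2 and Foxo1 lie past the upper line in Cd73N, where Foxj1 is the gene also past it in Cd73P, while Foxn3 and Foxo6 lie past the lower line in both.

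Markers of other cell types also differed between the genotypes. Of all genes, 7.18% were higher and 1.71% lower in Cd73N Ezh2-cKO, and 2.26% and 2.38% in Cd73P Ezh2-cKO. In Cd73N, Müller glia markers were higher for 10 of 10 genes and summed to 1080 FPKM in WT and 5580 in Ezh2-cKO. Bipolar markers were lower for 6 of 9 and summed to 2195 and 1285 FPKM. Microglia markers were higher for 5 of 10 (120 and 180 FPKM), and endothelial markers for 2 of 10, with 1 lower (66.8 and 134 FPKM). The 2 higher endothelial markers were Kdr (22.6 and 86.2 FPKM) and Flt1 (2.86 and 16.2), which carried the rise of the sum. Esam was the lower 1 (23.9 and 13.3 FPKM), and the other endothelial markers stayed under the threshold. Rod markers were lower for 5 of 8, with 0 higher, while cone markers were higher for 3 of 9, with 0 lower (3618 and 4806 FPKM). In Cd73P, Müller glia markers were higher for 7 of 10 (114 and 238 FPKM), bipolar markers lower for 7 of 9 (207 and 67.1 FPKM) and cone markers lower for 7 of 9 (332 and 171 FPKM). Rod markers were higher for 2 of 8, with 0 lower. No marker of these lists was at 0 in any library. The part of these cell types in the forkhead differences was not tested.

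Between the fractions, 3 of 42 forkhead genes were higher in Cd73P WT (Foxo1, Foxo3 and Foxk1), against 9.07% of all genes, and 8 were lower, against 27.9%. Among genes of at least 1 FPKM these were 3 and 7 of 15, against 15.4% and 45.9%, with a median log2 ratio of -0.37, against -0.47 for all such genes. Foxs1, Foxf2 and Foxc1, counted as lower, passed this filter through Cd73N WT alone, so the filter bears on these counts and this median. Without it, 7.14% and 19.0% of forkhead genes were higher and lower in WT, against 9.07% and 27.9% of all genes. A difference from all genes was not tested. In Ezh2-cKO, 2 of 42 were higher in Cd73P (Foxo3 and Foxk1), against 8.40%, and 15 were lower, against 29.1%. Among genes of at least 1 FPKM these were 2 and 12 of 18, against 13.8% and 45.6%, and the median was -0.92, against -0.46. Of the 12 lower genes, Foxn3, Foxs1, Foxo6, Foxi3, Foxc1, Foxf2, Foxd2 and Foxd1 passed the filter through Cd73N Ezh2-cKO alone. The filter thus bears on this count and median. Over all usable forkhead genes the median was -0.059 in WT, against -0.05 for all genes. In Ezh2-cKO it was -0.059, against -0.09.

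Foxk1 and Foxo3 were on the Cd73P side in both genotypes. The 8 genes lower in Cd73P in both were Foxc1, Foxf2, Foxi3, Foxk2, Foxn2, Foxn3, Foxo6 and Foxs1. The fraction and genotype comparisons share libraries, so a high value in Cd73N Ezh2-cKO enters both. Scaling between libraries shifted log2 FPKM ratios, before the addition of 1, by 0.31 (median ratio) or 0.42 (FPKM sum) for Cd73P against Cd73N in WT and by 0.27 or 0.22 in Ezh2-cKO. For Ezh2-cKO against WT the shifts were 0.09 or 0.15 in Cd73N and 0.04 or -0.05 in Cd73P. On the (FPKM + 1) scale each gene moved by a different amount, and Foxs1, for example, went from -3.17 to -3.15 and -3.14 in WT and from -2.89 to -2.94 and -3.00 in Ezh2-cKO.

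**Figure D4:**
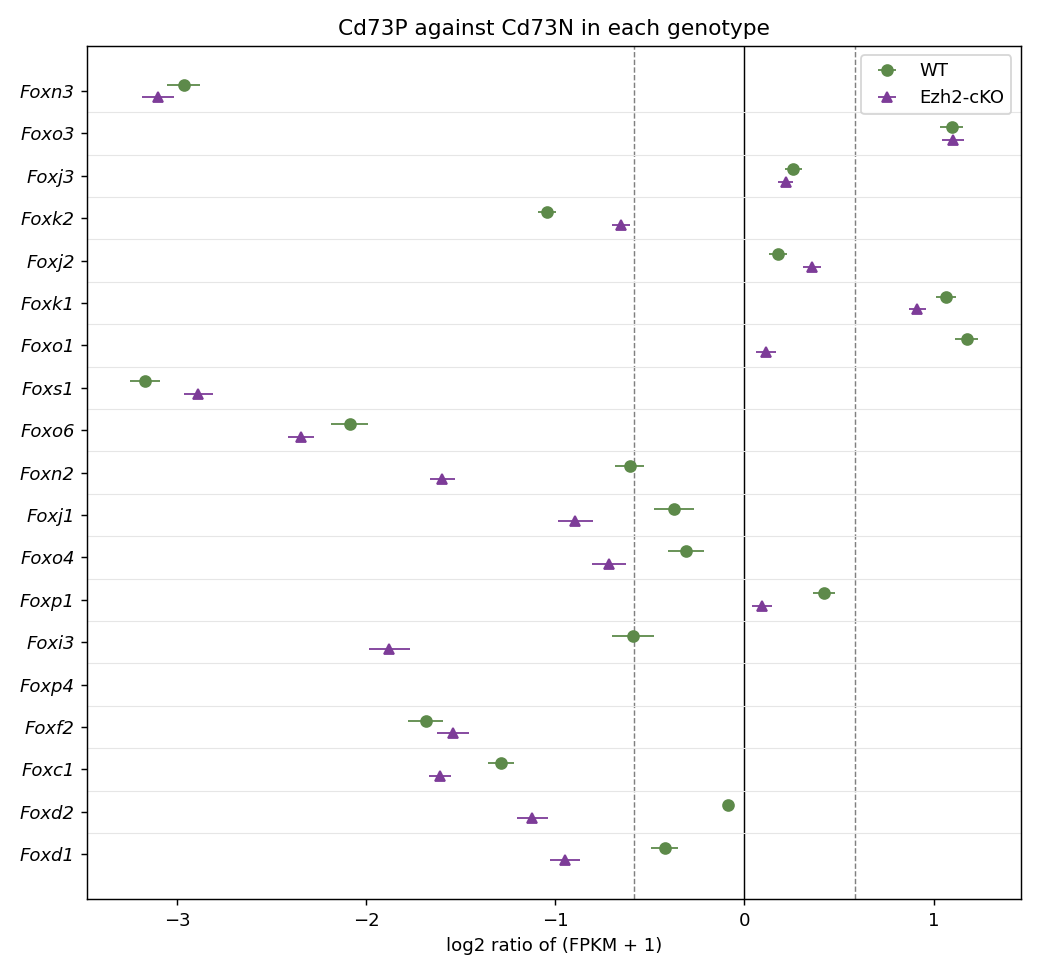
Log2 ratio of (FPKM + 1) between Cd73P and Cd73N for the same forkhead genes, in WT (circles) and Ezh2-cKO (triangles), with bars of 1 SE for counting error and dashed lines at 1.5-fold. Foxo3 and Foxk1 lie past the upper line in both genotypes, Foxo1 does so in WT alone (1.17 against 0.11), and Foxs1 and Foxn3 lie farthest to the left.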

How the data were processed

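Total RNA from sorted cells was made into poly(A) cDNA libraries and read as 36-base single ends. Per the labels and the study's methods, reads were converted with bcl2fastq 1.8.4, aligned to mm9 with TopHat2 2.0.8b (up to 50 hits per read), and the authors computed FPKM with Cufflinks 2.1.1. The deposited tables held FPKM, its lower and upper bounds and a status. FPKM was not scaled between libraries, and absolute depth is unknown.

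Rows sharing a symbol were summed (234 symbols), 731 small RNA symbols were left out, and values with a status other than OK were not used. SE took the bounds as 4 SE wide. Values were compared as log2(FPKM + 1) at a 1.5-fold threshold, with no test (Python 3.11.15, pandas 2.3.3). Only the counting of calls was tested on simulated data, with changes placed in well expressed genes. Every forkhead gene of at least 1 FPKM in any library, or past the threshold, was named. From pathway lists at most 4 genes past the threshold with at least 5 FPKM were named per comparison. Irs1, and Bcl2l11 in the Cd73N genotype comparison, were named outside this limit. The symbol rule matched 44 genes, of which 1 is not reported here and enters no forkhead count or sum. Forkhead genes and lists were chosen with earlier results of these data known. Of further marker lists, amacrine markers (8 of 10 measured) were higher for 2 and lower for 0 in Cd73N Ezh2-cKO, retinal ganglion markers for 2 and 1 of 10, horizontal and T cell markers for 0 and 0 of 5 and 6, and pigment epithelium markers for 0 and 0 of 11. Of all genes, 7.18% were higher and 1.71% lower there.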

Additional observations from a re-analysis of the deposited data

Results flagged for a closer look

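The Foxo1 difference between genotypes passed the threshold in Cd73N alone, with a log2 ratio of (FPKM + 1) of 0.90. In Cd73P the ratio was -0.16, under the threshold. The Cd73P minus Cd73N difference of these ratios was -1.06. With 1 library per group this difference was not tested.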

How the results depend on the processing

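Counts and medians moved mainly with the pseudocount, the threshold and the filter on low values. With a pseudocount of 0.1, forkhead genes higher in Cd73N Ezh2-cKO numbered 8, those higher and lower in Cd73P Ezh2-cKO 3 and 6, and 18 were lower in Cd73P WT than in Cd73N WT. The median log2 ratio between the Ezh2-cKO fractions was then -1.59. With a pseudocount of 5, 2 were higher and 0 lower in Cd73N Ezh2-cKO, and 0 and 0 in Cd73P Ezh2-cKO. Between fractions 4 were lower in WT and 5 in Ezh2-cKO, with medians of -0.15 and -0.41. At 2-fold, 0 were lower in Cd73N Ezh2-cKO, 0 were higher and 1 lower in Cd73P Ezh2-cKO, and 1 was higher and 8 lower in Cd73P against Cd73N of Ezh2-cKO. Scaling by the median ratio left 1 lower in Cd73N Ezh2-cKO. Scaling by the FPKM sum left 0, with a median of 0.32 there, and gave 5 higher in Cd73P WT against Cd73N WT, with a median of -0.11. Over all forkhead genes with a usable value, medians were 0.010 (Cd73N genotypes), -0.059 (WT fractions) and -0.059 (Ezh2-cKO fractions). Over genes of at least 5 FPKM the median turned to -0.14 in Cd73N and to 0.014 in Cd73P between genotypes, and to 0.18 between the WT fractions, and was -0.27 between the Ezh2-cKO fractions. These filters retain fewer or more genes by construction, and the cause of the other shifts was not tested.

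Of 39 single-gene calls, 39 were kept with a pseudocount of 0.1, 16 with 5, 34 with median ratio scaling and 33 with FPKM sum scaling. None of these calls turned its direction. Among values under the threshold, Foxj3 between the Cd73N genotypes changed sign, from -0.08 to 0.0034 (median ratio) and 0.06 (FPKM sum), as did Foxj2 between the Cd73P genotypes, from -0.02 to 0.02 (median ratio). Filtering at 1 FPKM and requiring bounds that do not overlap moved no count by more than 1.5 times. No replicate could be left out, and no paired analysis was possible because each group had 1 library. Depth limits all values under 1 FPKM.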
